A study of Mus musculus with 3 samples.

Results

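Broad H3K4me3 domains are long, unbroken stretches of chromatin in which histone H3 carries 3 methyl groups on lysine 4. They were taken here as the peaks of the H3K4me3 list with a length of at least 8000 bp, together with every RARβ peak that shared at least 1 bp with them. This gave 473 domains of 35971 H3K4me3 peaks (1.31%), and 509 of the 8075 RARβ peaks lay at them. The mark and the receptor were mapped by chromatin immunoprecipitation and sequencing (ChIP-seq), which counts DNA fragments bound by an antibody, in the caudate putamen (dorsal striatum). Both libraries came from wild-type male mice on a mixed C57BL/6J x 129SvEms/j background, with anti-RARbeta (sc-552) in one and anti-H3K4me3 (ab8580) in the other. Per the labels the colony also gave RARβ-null males, with the wild types as their littermate controls, but no library of null mice is among the samples, and the age of the mice and how many gave each library are not stated. A library made with anti-GFP (ab290) was not analysed here. With 1 library per antibody no value has a replicate error, so no test was made, and all 95% intervals cover counting error only.

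H3K4me3 is placed by methyltransferase complexes of the SET1 and MLL families and marks the start sites of active genes. In many cell types most promoters carry a short stretch of it, and unusually long stretches are known for lying at genes that define the identity of the cell. RARβ is a retinoic acid receptor that binds DNA together with a retinoid X receptor, mostly at repeated hormone response elements, and is abundant in striatal neurons. The peak lists carry no gene names, so the domains are given by position in mouse genome build mm9, and the genes they lie at were not analysed here.

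The domains took up 5.175 Mb, which was 6.35% of the length covered by H3K4me3 peaks, and held 8.69% of the H3K4me3 tags in peaks (a tag is 1 mapped read). Their median width was 9658 bp, with quartiles of 8623 and 11486 bp. The narrowest was 8002 bp and the widest 78469 bp. Each held between 886 and 21137 H3K4me3 tags, with a median of 3982. Per kb of domain the median was 388.9 H3K4me3 tags, against 398.6 in peaks of 4 to 8 kb and 103.5 in peaks under 4 kb. Tag density thus ran at about the level of the next widest peaks, with 91.7 tags per kb in the sparsest domain and 751.3 in the densest. Because the members were chosen by their width, these H3K4me3 values are a description. The 5 domains just inside the limit measured 8002 to 8015 bp and 4 of them held RARβ. The 5 peaks just outside it measured 7982 to 7998 bp and 3 of them held RARβ.

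Many domains had another H3K4me3 peak close by. The nearest one lay within 1 kb of 121 domains (25.6%), against 13.3% of the peaks of 4 to 8 kb and 9.37% of those under 4 kb. The median gap to it was 3468 bp from domains, 9529 bp from peaks of 4 to 8 kb and 11844 bp from those under 4 kb. When peaks up to 1000 bp apart were joined, 676 stretches reached 8 kb.

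**Figure D1:**
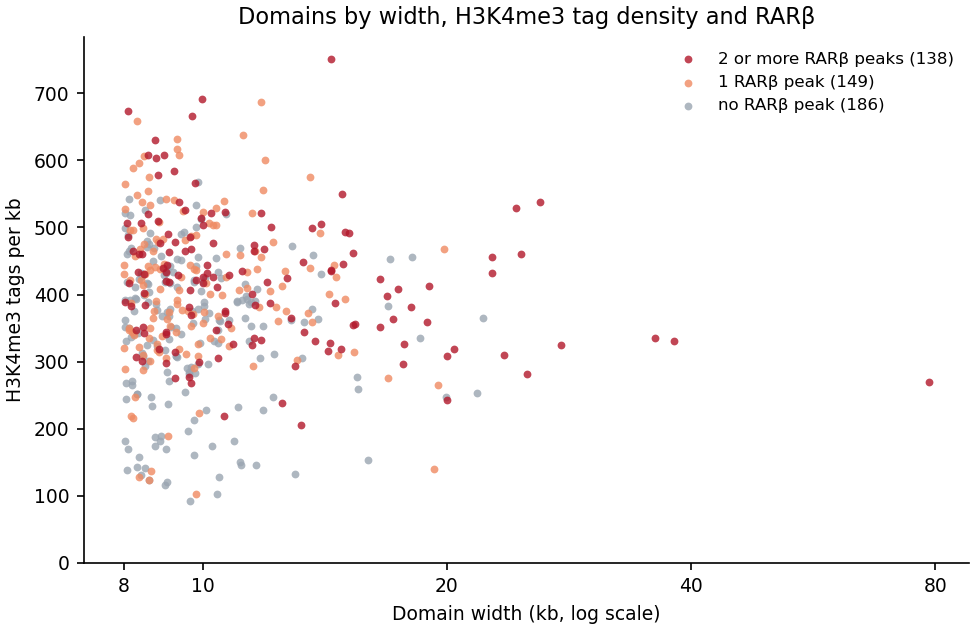
Width in kb (horizontal, log scale) against H3K4me3 tags per kb (vertical) for the 473 domains, with the number of RARβ peaks each holds given by colour. Domains that hold RARβ reach 751.3 tags per kb and those without reach 567.7, and the quartiles of both groups overlap.

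RARβ was found at more than 1 in 2 domains with all peaks of the list, but not when RARβ peaks needed at least 10 tags. At least 1 RARβ peak overlapped 287 of the 473 domains (60.7%, Wilson 95% interval 56.2 to 65.0), against 13.1% of all H3K4me3 peaks. With RARβ peaks of at least 10 tags the share of domains was 46.7% (42.3 to 51.2), against 7.28% of narrower peaks. With all RARβ peaks, the share among peaks of 4 to 8 kb was 30.5% (29.0 to 32.1), and among those under 4 kb it was 10.4%. Several peaks in one domain were also common. At least 2 RARβ peaks lay at 138 domains (29.2%), against 1.21% of all H3K4me3 peaks, and at least 3 lay at 48 domains (10.1%), against 0.209%. Of the 75 H3K4me3 peaks in the whole list with 3 or more, 48 were domains (64.0%). Longer peaks can overlap more sites by their length alone, so these shares move with width by construction, and the comparison per length is given next.

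**Figure D2:**
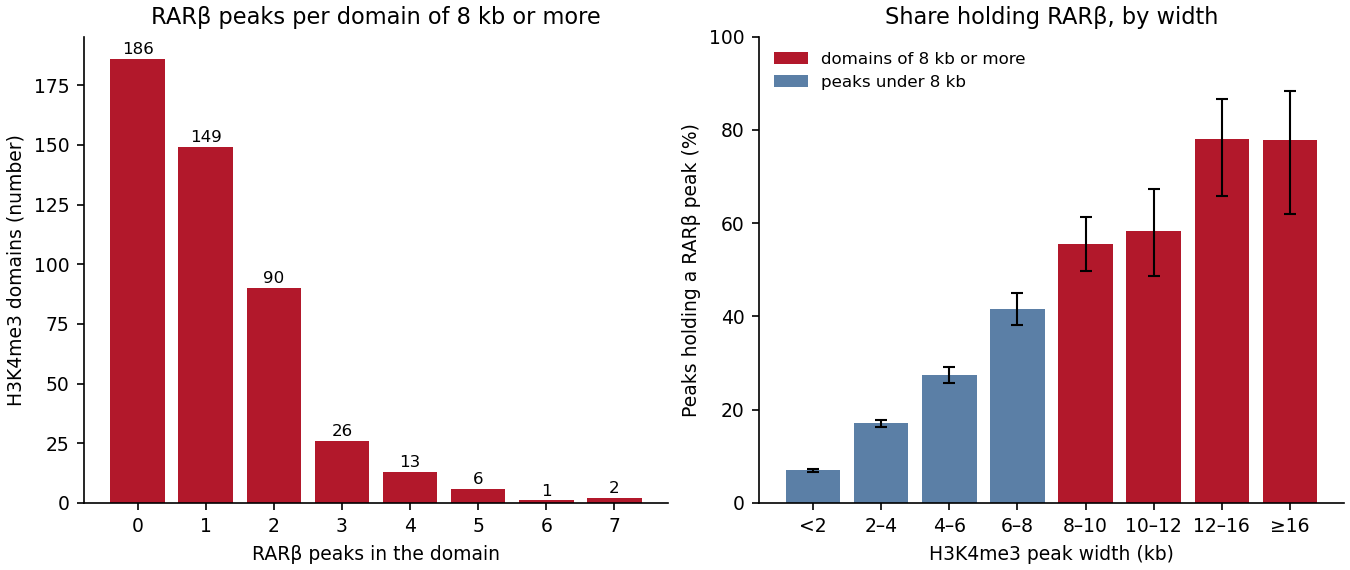
Left, number of domains (vertical) by number of RARβ peaks held (horizontal). Right, percent of H3K4me3 peaks holding RARβ (vertical) by width class, with Wilson 95% intervals. The share is 55.6% at 8 to 10 kb, 58.3% at 10 to 12 kb, 78.0% at 12 to 16 kb and 77.8% from 16 kb on, and 186 domains hold no RARβ peak.

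Per Mb of marked chromatin, 97.2 RARβ summits were found in domains (exact Poisson 95% interval 88.9 to 106.1), a summit being the position of highest pileup in a peak. Peaks of 4 to 8 kb held 68.9 per Mb and those under 4 kb 58.0. The ratio of domains to all narrower peaks was 1.60 (exact 95% interval 1.46 to 1.76). Against peaks of 4 to 8 kb, whose H3K4me3 tag density was close to that of the domains, it was 1.41 (1.27 to 1.56). The excess in share of peaks holding RARβ was therefore larger than the excess per length. Counted per 10000 H3K4me3 tags, domains had 2.53 RARβ summits, peaks of 4 to 8 kb 1.78, peaks of 2 to 4 kb 1.802 and peaks under 2 kb 4.75. On that scale domains thus lay above the peaks of 2 to 8 kb and below the narrowest ones.

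Within the domains the density of RARβ was at its lowest where the mark was sparse. In the 33 domains with fewer than 200 H3K4me3 tags per kb there were 5 RARβ summits, 15.3 per Mb (4.97 to 35.8), against 56.5 per Mb in narrower peaks of that tag density and 50.1 in those of 4 to 8 kb. The direction was opposite at every higher band. Domains with 200 to 300 tags per kb had 61.1 RARβ summits per Mb, against 34.8 in narrower peaks, and those with 300 to 400 had 90.6 against 54.8. At 400 to 500 tags per kb domains had 112.7 per Mb and narrower peaks 72.8. At 500 or more, domains reached 152.1 (124.3 to 184.3) and narrower peaks 90.7 (84.2 to 97.5). The ratio of domains to narrower peaks was 0.271 (0.0879 to 0.633) in the sparsest band and lay between 1.55 and 1.76 in the other 4. The share of domains holding RARβ moved the same way, at 18.2% in the sparsest band and 85.1% in the densest. The sparsest band also took in most of the domains with an H3K4me3 FDR above 5%, at up to 15.08%. Of all domains, 97.0% had an FDR of 5% or less, against 34.1% of all narrower peaks. The part of weak H3K4me3 calls in the low value of this band was not tested.

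**Figure D3:**
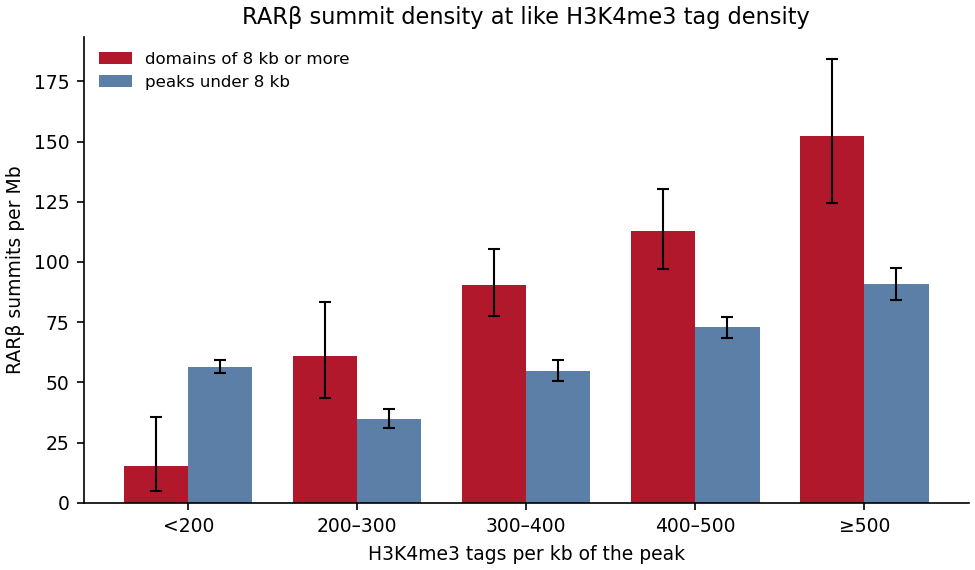
RARβ summits per Mb (vertical) by H3K4me3 tags per kb (horizontal) in domains and in narrower peaks, with exact Poisson 95% intervals. Domains lie at 15.3 per Mb in the sparsest band and at 152.1 in the densest, and only in the sparsest are they below the narrower peaks.

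The number of RARβ peaks in a domain ran between 0 and 7. There were 149 domains with 1 RARβ peak, 90 with 2, 26 with 3, 13 with 4, 6 with 5, 1 with 6 and 2 with 7, and 186 with none. The mean was 1.08 and the variance 1.46. With RARβ peaks of at least 10 tags the mean was 0.676, and in the domains of at least 12 kb it was 1.905 with all RARβ peaks. By width, the mean was 0.836 in 275 domains of 8 to 10 kb, 0.951 in 103 of 10 to 12 kb, 1.54 in 59 of 12 to 16 kb and 2.50 in the 36 of 16 kb or more. Of those 36, 47.2% held 3 or more. Density differed less over the same classes, at 94.0, 85.8, 111 and 108 RARβ summits per Mb. Across the 473 domains the number of RARβ peaks had a Spearman's rho of 0.415 and a Pearson's r of 0.499 with H3K4me3 tags. With width, rho was 0.247 and r 0.388, and with tags per kb, rho was 0.260 and r 0.243. These domains share 1 library of each kind, and the tags of a domain rise with its width.

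RARβ peaks at domains were modestly richer in tags than those at narrower H3K4me3 peaks, with the same or a lower median fold. Their median was 12 tags (quartiles 8 and 17), against 11 at peaks of 4 to 8 kb and 10 at peaks under 4 kb. A share of 18.9% had 20 tags or more (15.7 to 22.5), against 14.4% at peaks of 4 to 8 kb and 11.7% at those under 4 kb. At least 30 tags were found in 7.47% (5.49 to 10.1), against 4.34% and 2.99%. The median fold enrichment, the authors' ratio of pileup to local background, was 17.88 at domains, 17.88 at peaks of 4 to 8 kb and 20.43 at peaks under 4 kb. RARβ peaks at domains were also wider, with medians of 736, 681 and 666 bp in the same order. The smallest tag number in the list, 7, made up 13.6% of the RARβ peaks at domains, so sites just under the detection limit of this shallow library were not detectable.

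Neighbouring RARβ summits in a domain lay a median of 2142 bp apart, over 218 gaps with quartiles of 1297 and 4070 bp. The closest were 386 bp apart. Gaps under 1 kb numbered 27 (12.4%), those of 1 to 2 kb 77 (35.3%) and those over 5 kb 44 (20.2%). In peaks of 4 to 8 kb the median gap was 1533 bp over 199 gaps, and a gap there cannot pass the width of the peak. In the 90 domains with exactly 2 summits inside, the pair lay a median of 2167 bp apart, or 21.0% of the domain's width. In the 47 with 3 or more summits inside, the first and the last spanned a median of 49.8% of the width. RARβ summits lay on both sides of the H3K4me3 summit in 75 of the 137 domains with at least 2 inside (54.7%), and in 36 of the 47 with at least 3 (76.6%). More summits in a domain make a longer span and a place on both sides likelier by construction.

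The H3K4me3 summit of a domain, of which the list gives 1 per peak, was usually off centre. It lay a median of 2247 bp from the nearer edge, or 22.8% of the width, against 30.9% in peaks of 4 to 8 kb and 42.4% in those under 4 kb. With each domain cut into 10 equal bins, 65.8% of the H3K4me3 summits fell into bins 2, 3, 8 and 9, and 4.65% into the outermost bins. RARβ summits were spread more evenly, with 49.7% in bins 2, 3, 8 and 9, 35.2% in the 4 middle bins and 15.1% in the outermost.

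RARβ leaned to the side of the domain that carried the H3K4me3 summit. Of the 503 RARβ summits inside domains, 348 lay on the same side of the midpoint as it (69.2%, 65.0 to 73.1), against 71.9% in peaks of 4 to 8 kb and 59.8% in those under 4 kb. With the domains turned so that this side came first, bin 2 held 19.9% of the RARβ summits and bin 3 held 16.7%. The far side held less, with 4.97% in bin 7 and 4.77% in bin 10.

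**Figure D4:**
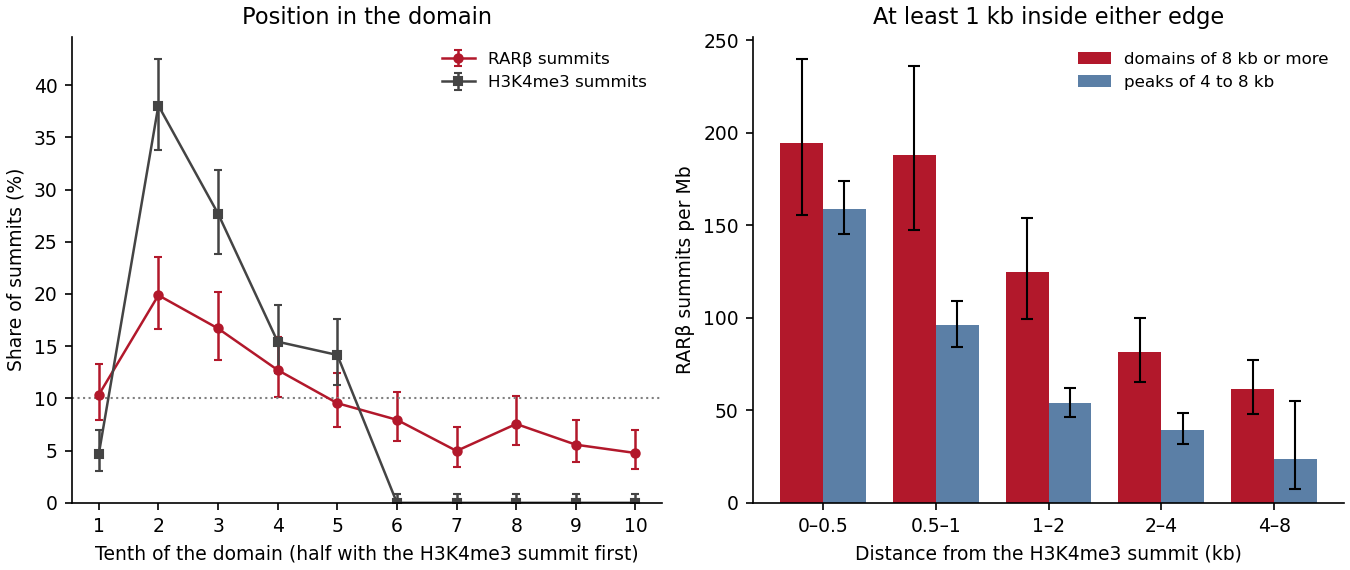
Left, percent of RARβ and H3K4me3 summits (vertical) in 10 equal bins of the domains (horizontal), turned so that the side with the H3K4me3 summit comes first, with a dotted line at the 10% of an even spread. Right, RARβ summits per Mb (vertical) by distance from the H3K4me3 summit in kb, at positions at least 1 kb inside the edges, with 95% intervals in both panels. Bin 2 holds 19.9% of the RARβ summits, and at least 1 kb inside the edges the density is 194 per Mb in domains and 159 per Mb in peaks of 4 to 8 kb within 0.5 kb of the H3K4me3 summit.

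RARβ was densest around the H3K4me3 summit and reached far from it. The median distance between the summits was 1620 bp in domains, 613 bp in peaks of 4 to 8 kb and 265 bp in those under 4 kb. Within 1 kb of the H3K4me3 summit lay 37.0% of the RARβ summits in domains (32.9 to 41.3), a zone that held 18.2% of their length. In the 95 domains of at least 12 kb the share was 23.6% (18.0 to 30.3). A zone of 1 kb is a smaller part of the length of wider domains. That part was not computed here, so the lower share does not by itself show less concentration. By zone, domains had 199 RARβ summits per Mb within 0.5 kb of the H3K4me3 summit, 195 at 0.5 to 1 kb, 112 at 1 to 2 kb, 79.8 at 2 to 4 kb, 56.1 at 4 to 8 kb and 61.3 beyond 8 kb. Peaks of 4 to 8 kb had 157 in the innermost zone, 90.7 at 0.5 to 1 kb, 44.1 at 1 to 2 kb, 27.9 at 2 to 4 kb and 20.9 at 4 to 8 kb. At the summit itself the densities were thus close, with a ratio of domains to peaks of 4 to 8 kb of 1.27 (1.01 to 1.58). Away from it they parted, with ratios of 2.15 (1.69 to 2.72) at 0.5 to 1 kb, 2.54 (1.98 to 3.24) at 1 to 2 kb and 2.86 (2.19 to 3.71) at 2 to 4 kb.

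Zones far from the summit of a narrower peak are also close to its edges. Counting only positions at least 1 kb inside the edges, the ratios were 1.22 (0.960 to 1.54) within 0.5 kb of the H3K4me3 summit, 1.96 (1.49 to 2.55) at 0.5 to 1 kb, 2.31 (1.77 to 3.01) at 1 to 2 kb and 2.05 (1.52 to 2.78) at 2 to 4 kb. The innermost interval then included 1 and the others did not. These intervals count each RARβ summit as independent, although many summits shared a domain. Edges themselves were poor in RARβ. The outer 0.5 kb on each side of the domains had just 12 RARβ summits. This was 25.4 per Mb, compared with 116 at 0.5 to 1 kb from the edge, 118 at 1 to 2 kb, 106 at 2 to 4 kb and 89.2 farther in. Narrower peaks had poor edges too. In peaks of 4 to 8 kb the outer 0.5 kb had 10.4 per Mb, against 68.1 at 0.5 to 1 kb. In peaks under 4 kb the values were 25.9 and 88.3. In all, 9 of the 509 RARβ peaks crossed an edge and 6 had their summit outside it.

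The H3K4me3 summit lay inside a RARβ peak in 86 domains, which was 18.2% of all domains (15.0 to 21.9) and 30.0% of those that held RARβ. In peaks of 4 to 8 kb the corresponding shares were 13.9% and 45.6%. The RARβ peak with the most tags could be near to or far from the H3K4me3 summit. In pairs it was the nearer one in 41 of the 87 domains without a tie (47.1%), where an even split is 50.0%. In triples it was the nearest in 12 of 26 (46.2%), where an even split over 3 peaks is 33.3%. In domains with at least 4 it was the nearest in 7 of 21 without a tie (33.3%). An even split there varies with the number of peaks and lies below that of triples. The ratio of the richest to the poorest RARβ peak in tags had a median of 1.48 in pairs, 2.71 in triples and 3.52 in domains with at least 4. Such a ratio rises by construction with the number of peaks compared.

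The domains with the most RARβ peaks differed in how those were laid out. On chromosome 11, 98206282 to 98223137, a domain of 16856 bp held 7 RARβ peaks with 45, 8, 32, 10, 14, 23 and 21 tags along the chromosome. They began 2.54 kb before the H3K4me3 summit and ended 7.12 kb after it. The other domain with 7 lay on chromosome 3, 17683310 to 17699859, and its RARβ peaks had 8, 7, 7, 23, 7, 13 and 14 tags. Both domains were close in width and in H3K4me3 density, with 397.1 and 422.8 tags per kb, but the RARβ tags summed to 153 on chromosome 11 and 79 on chromosome 3. Of the 7 peaks on chromosome 3, 3 stood at the smallest number the list holds. On chromosome 12, 109207018 to 109245146, 6 RARβ peaks were strung over 38129 bp with the H3K4me3 summit near the far end, and the first lay 33.1 kb before it.

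Short domains could be dense. On chromosome 14, 71021111 to 71030054, only 8944 bp held 5 RARβ peaks with 24, 38, 17, 14 and 7 tags, and the 38-tag peak lay 0.347 kb from the H3K4me3 summit. At 11.2 RARβ tags per kb this was the highest density among domains with at least 2 RARβ peaks. The next was a domain of 11793 bp on chromosome 7, 52953614 to 52965406, with 28, 14, 8, 24 and 39 tags and 9.58 per kb. Here the richest RARβ peak lay 2.06 kb after the H3K4me3 summit and the peak nearest to it had 8 tags. A domain on chromosome 2, 70395381 to 70408098, also held 5 RARβ peaks, but with 8, 8, 10, 13 and 10 tags none stood out. On chromosome 6, 91633231 to 91648662, the 5 RARβ peaks kept to the first 37.6% of the domain, which included the smallest gap of all, 386 bp.

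**Figure D5:**
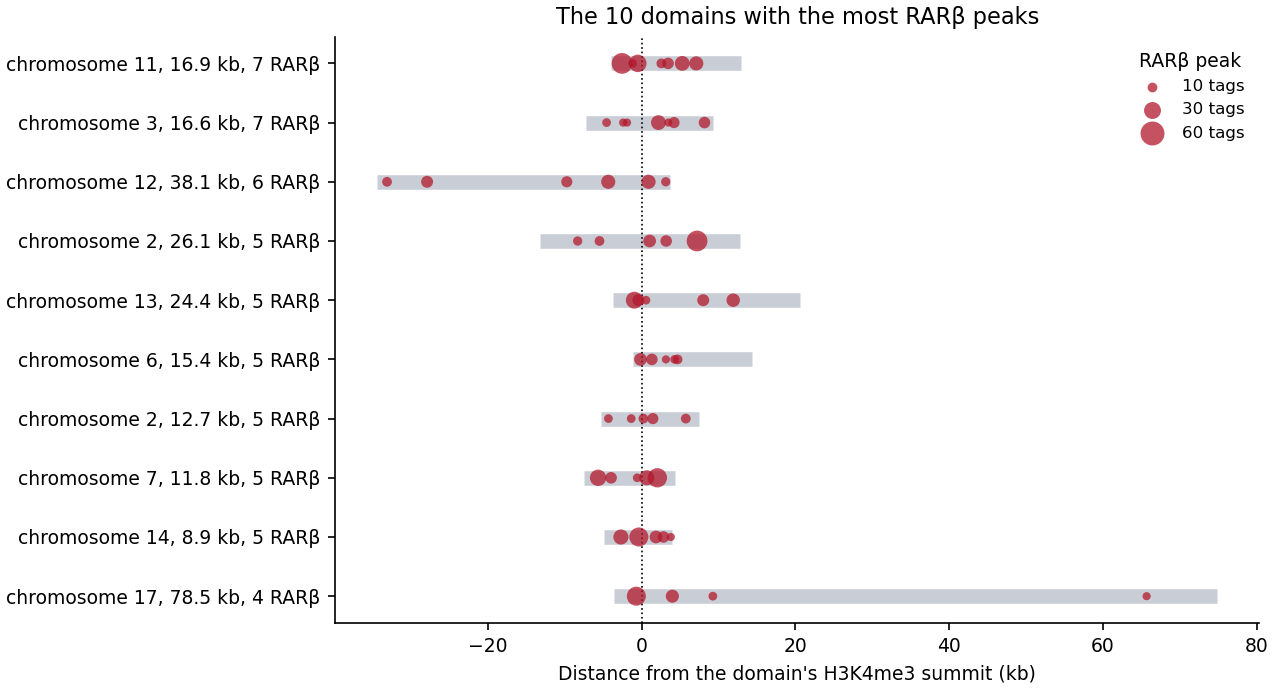
The 10 domains with the most RARβ peaks, drawn to scale as grey bars in kb from their H3K4me3 summit (dotted line), with RARβ summits as dots whose area follows their tags. RARβ summits are spread along the bar on chromosome 3 and kept to its first 37.6% on chromosome 6, and a gap of 56394 bp is seen on chromosome 17.

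The widest domain, on chromosome 17 from 8991315 to 9069783, was largely empty of RARβ. Its 4 RARβ peaks had 38, 18, 8 and 7 tags; the first 3 lay within 9.27 kb of the H3K4me3 summit and the last 65.7 kb from it, after a gap of 56394 bp. The domain from 9071037 to 9082192 lay 1253 bp beyond the end of this widest one. That from 9083356 to 9093121 lay 1163 bp farther on. Both were counted as separate domains without RARβ. Single strong RARβ peaks marked other domains. On chromosome 6, 99458598 to 99475984, a RARβ peak of 93 tags (75.1 to 113.9) was accompanied by peaks of 19, 10 and 7 tags and lay 1.56 kb from the H3K4me3 summit. On chromosome 17, 79125138 to 79137247, the peak of 64 tags lay 5.46 kb from the H3K4me3 summit, while the peak 0.030 kb from it had 7 tags. A domain on chromosome 14, 17398221 to 17409557, had a single RARβ peak, which with 74 tags and a fold of 123.3 was the highest in fold at any domain and lay 0.243 kb from the H3K4me3 summit. The authors' FDR of that peak was 20%, against a median of 0.10% for RARβ peaks at domains. Its score, −10 times log10 of p, was 948.9, against a median of 76.15. Other high scores also came with an FDR above that median, such as 0.79% at 326.3 and 1.43% at 401.2 on chromosome 11. A high FDR here thus did not mean a low score. Among RARβ peaks at domains the one with the most tags, 111, had an authors' FDR of 25% and lay at the edge of a domain on chromosome 15, 103331496 to 103355012, with its summit outside the domain, at −270 bp from the edge. The 3 RARβ peaks inside that domain had 18, 11 and 16 tags.

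Domains with RARβ had higher median levels of the mark than those without. The 287 with RARβ had a median of 417.7 H3K4me3 tags per kb (quartiles 343.0 and 479.9), and the 186 without had 362.4 (277.9 and 420.6). Median H3K4me3 fold was 28.48 with RARβ and 23.05 without, and median width was 9816 bp with RARβ and 9308 bp without. The quartile ranges overlapped in each of these measures. Split into 4 equal groups by H3K4me3 tags per kb, domains held RARβ in 44.5%, 57.6%, 61.0% and 79.7% of cases, in rising order of the mark. Split into 4 by width, the shares were 54.6%, 57.6%, 53.4% and 77.1% in rising order, so that the widest group stood apart in share. The share moves with width by construction. Per Mb, the same width groups had 88.0, 99.6, 85.1 and 108.5 RARβ summits. The exact Poisson interval of the widest group, 94.15 to 124.4 per Mb, overlapped that of each other group. All of the 5 domains with the most H3K4me3 tags per kb (666.7 to 751.3) held RARβ, with 11 peaks in all. Of the 5 with the fewest (91.7 to 121.0), 1 did. The part of H3K4me3 tag density in where RARβ was detected was not tested.

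Some of the widest domains had no RARβ peak. The 10 widest domains without one spanned 15501 to 22158 bp and carried 152.7 to 456.2 H3K4me3 tags per kb. The widest of them lay on chromosome 15, 85494187 to 85516344, and its nearest RARβ peak was 28.6 kb away. On chromosome 3, 34543749 to 34565557, a domain of 21809 bp had none within 206.9 kb. One of 19945 bp on chromosome 4, 82140170 to 82160114, had none within 750.3 kb. By contrast, a domain of 18518 bp on chromosome 10, 74778774 to 74797291, had a RARβ peak 1.43 kb beyond its edge.

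For all 186 domains without RARβ, the nearest RARβ peak lay a median of 38.6 kb away, with quartiles of 11.1 and 159.9 kb. It was within 5 kb for 26 (14.0%) and beyond 100 kb for 61 (32.8%). In the 10 kb on either side of a domain, RARβ summits were found at 75 of the 287 domains with RARβ (26.1%, 21.4 to 31.5) and at 42 of the 186 without (22.6%, 17.2 to 29.1). Their density there was 18.6 per Mb beside domains with RARβ and 13.4 per Mb beside those without.

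Domains lay on every autosome and on X. Chromosome 6 had the highest density, with 41 RARβ summits in 25 domains, 142 per Mb (102 to 193), and 20 of the 25 held RARβ. On X, 2 of 7 domains held RARβ, with 1 peak each of 15 and 8 tags, and the interval of its density, 3.70 to 110.4 per Mb, included the value of all domains. The largest distance from a domain to its nearest RARβ peak was also on X, where the domain from 108005099 to 108014514 had none within 7452 kb.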

How the data were processed

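RARβ and H3K4me3 ChIP-seq peak lists from wild-type caudate putamen were used, 1 library each. The submitters' processing notes list CASAVA 1.8.2, Bowtie and mm9. Per the file headers, MACS 1.4.2 was run per library with a cutoff of 1e-05 and a band width of 300 bp, keeping at most 1 tag per position. The same control library served both lists, and its antibody is not named. The H3K4me3 library kept 47461843 tags, 12.8 times the control's 3703580, which leaves few control tags behind each local background. The RARβ library kept 2237580 of 4994799 tags. Per the file headers, the deposited tag counts per peak are whole numbers without normalization. The deposited fold enrichment is the peak caller's ratio. The deposited score is −10 times log10 of p, recognised by its place since its column name was lost. The deposited FDR is in percent. A score or fold belongs to its own peak and was used only to describe peaks within a list.

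Peaks were joined when they shared 1 bp. Densities are RARβ summits per Mb of peak. Shares have Wilson intervals, counts exact Poisson intervals and ratios of densities exact conditional intervals, all at 95%; tags of PCR-amplified libraries carry no molecular identifiers. Alternatives were other width limits, tag minimums, FDR limits, joined peaks and the widest domains left out. The side of the midpoint, the bands of tag density and the limits on FDR and tag density that apply to both domains and narrower peaks were added after seeing the data. The members and lists were chosen with earlier results of these data known. Domains were named by rule: the 10 widest, the 10 with the most RARβ peaks, the 10 with the most RARβ tags per kb among those with at least 2 RARβ peaks, those of the 5 RARβ peaks richest in tags and of the 5 highest in fold, the 10 widest without RARβ, the 5 on each side of the width limit, and the 5 with the most and the fewest H3K4me3 tags per kb. Chromosome 6 and the domains on X were singled out after their values were seen. Planned comparisons of genes and motifs need an mm9 annotation and genome, which were not used here, so they were not run. Scripts were tested on simulated lists. Python 3.11.15, numpy 2.4.6, pandas 2.3.3, scipy 1.17.1 and matplotlib 3.10.9 were used.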

Additional observations from a re-analysis of the deposited data

How the results depend on the processing

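There were 54 recomputations of 8 results, of which 12 were added after seeing the data. Of the 54, 36 stayed within the interval of the value given and 18 moved. For a median this was the interval of the median itself, such as 1910 to 2393 bp for the gap between neighbouring RARβ summits. Quartiles were not used for it. Only the ratio of densities of domains to narrower peaks was read for a reversal. Over its 9 recomputations it ran between 1.416 and 1.786 and so stayed above 1. None of the 9 took the peaks with fewer than 200 H3K4me3 tags per kb alone, where the ratio was 0.271 (0.0879 to 0.633). For the other results a reversal was not tested. No paired analysis was possible because there was 1 library per antibody. With a width limit of 12 kb, the share of domains holding RARβ was 77.9%, the ratio of densities 1.77, the mean number 1.905, the median gap 2523 bp, the share of RARβ summits within 1 kb of the H3K4me3 summit 23.6%, the share on its side of the midpoint 64.0%, and the H3K4me3 density of domains with RARβ 384.4 tags per kb, against 358.7 in those without. With a limit of 6 kb, the share was 48.8%, the mean 0.736 and the share within 1 kb 44.8%. The share holding RARβ and the mean number move with width by construction. The zone within 1 kb of the H3K4me3 summit is a smaller part of wider domains. Other causes of these moves were not tested. With RARβ peaks of at least 10 tags, the share was 46.7% in domains and 7.28% in narrower peaks, the ratio 1.79, the mean 0.676 and the median RARβ fold at domains 19.2. Both kinds of peak limited to at least 300 H3K4me3 tags per kb gave a share of 66.5%, against 22.6% in narrower peaks and 34.2% in those of 4 to 8 kb, with a ratio of 1.42 to the last. Joining H3K4me3 peaks up to 1000 bp apart gave 676 domains and 365.1 tags per kb in those with RARβ, against 320.1 without. A joined stretch counts the gaps in its length but only the tags of its peaks, which lowers its tags per kb by construction. Any other cause was not tested. With 7 tags as the smallest RARβ peak, weaker sites in domains called empty were not detectable at this depth.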
